A study of Mus musculus with 20 samples.

Results

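*Pax5*, *Ebf1*, *Spib*, *Pou2af1* and *Bcl11a* are transcription factor genes of the B cell lineage, taken by their symbols from a table of RPKM (reads scaled by gene length and library size) in mouse blood. All 5 were found among the 9228 genes of that table and all 5 passed the filter on low values described with the processing. The 20 libraries came from peripheral blood of 20 female C57BL/6 mice aged 22-23 weeks, 4 for each genotype: *Lyn*-/-*Irf5*-/-, *Lyn*-/-*Irf5*+/-, *Lyn*-/-*Ifnar1*-/-, *Lyn*-/- and WT. All genotypes other than WT carried the *Lyn* deletion, so the mice that also lacked 1 or both copies of *Irf5*, or both copies of *Ifnar1*, were set against *Lyn*-/- mice. The alleles are carried by every cell of the body, blood was sequenced unsorted, and by the study's methods the WT mice were bought from a breeder.

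*Lyn* encodes a Src family kinase that restrains B cell receptor signalling, and *Lyn*-/- mice develop a disease like systemic lupus erythematosus (SLE). *Irf5* encodes a transcription factor of Toll-like receptor signalling, and *Ifnar1* a subunit of the receptor for type I interferon. In bone marrow progenitors, *Ebf1* opens the B cell programme together with the E2A protein encoded by *Tcf3*. *Pax5*, a target of *Ebf1*, then commits cells to the lineage and is kept on until they become plasma cells. *Spib* encodes an Ets family factor related to PU.1 that acts in B cell receptor signalling and in plasmacytoid dendritic cells (pDCs). *Pou2af1* encodes OCA-B (also OBF-1 or BOB.1), the coactivator that joins the Oct1 and Oct2 proteins on octamer DNA and is needed for germinal centres. *Bcl11a* encodes a zinc finger factor required for B cell and pDC development, which also represses globin genes in erythroid cells.

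On GRCm38 with the GENCODE vM21 annotation, *Pax5* lies at chr4:44524757-44710487 on the minus strand and *Ebf1* at chr11:44617317-45008091 on the plus strand. *Spib* lies at chr7:44525993-44532071 on the minus strand. *Pou2af1* lies at chr9:51213708-51240080 and *Bcl11a* at chr11:24078056-24174123, both on the plus strand. Antisense gene models overlap *Pax5* (*Gm12462*), *Ebf1* (*Gm12158*) and *Bcl11a* (*Gm12064* and *4930538E20Rik*). None of these models is in the table, and the strand setting of the counting is not given in the sources used here, so reads of such a model cannot be told apart from those of the member.

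The 250 bases before the RefSeq start sites (GRCm38.p6) were read for the letters bound by factors of this programme. The 5 genes had 6 such promoters, since *Ebf1* has 2 start sites. The octamer core TGCAAAT was searched on both strands because the *Pou2af1* product acts on octamer DNA. It stood in the promoters of *Spib*, 248 bases before the start, and of *Pou2af1* itself, 231 bases before the start, against 3.56% of the 32851 mouse promoters. These are the promoters printed here, 5′ to 3′ on the strand of the gene with the core in capitals, for *Spib* from chr7:44532072-44532321 (minus strand) and for *Pou2af1* from chr9:51213440-51213689 (plus strand).
Spib: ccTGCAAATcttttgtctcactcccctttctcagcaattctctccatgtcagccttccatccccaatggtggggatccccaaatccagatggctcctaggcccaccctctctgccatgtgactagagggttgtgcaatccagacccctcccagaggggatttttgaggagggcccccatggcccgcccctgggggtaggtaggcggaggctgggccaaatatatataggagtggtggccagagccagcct
Pou2af1: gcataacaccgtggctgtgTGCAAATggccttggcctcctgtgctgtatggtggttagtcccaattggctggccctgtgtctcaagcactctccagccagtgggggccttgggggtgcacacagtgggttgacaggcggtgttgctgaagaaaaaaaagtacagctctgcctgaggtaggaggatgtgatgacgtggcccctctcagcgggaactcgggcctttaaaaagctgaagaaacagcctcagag
The full octamer ATGCAAAT, which contains the core, was in 0 of the 6 promoters and in 1.60% of all promoters. The palindrome CCCNNGGG, the letters read by the *Ebf1* product, stood in the *Spib* promoter as 2 overlapping matches at 65 and 64 bases before the start (11.8% of all promoters). The Ets letters GAGGAA stood in 1 *Ebf1* promoter, 130 bases before its start (23.3% of all promoters). AANNGAAA, a form of the letters read by interferon regulatory factors, stood in both *Ebf1* promoters (21.3% of all promoters). The E box CAGCTG was in 0 of the 6 (13.0% of all promoters). These matches describe the letters of the windows and no binding was measured.

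Whole reads recovered from the steps of the RPKM values summed to 812981 to 1863323 per library. These sums are not library totals. They leave out 6 genes whose reads were not recovered, and the search went no further than 20000 reads in the lowest library of a gene. *Lyn* was lower in every mouse of the 4 *Lyn*-deficient genotypes, with means of 7.51 to 10.9 RPKM against 34.6 ± 2.44 RPKM in WT mice (SD, n = 4). The whole-gene levels of *Irf5* and *Ifnar1* were not lower in the mice labelled as lacking them. *Irf5* averaged 38.2 ± 2.33 RPKM in mice labelled *Lyn*-/-*Irf5*-/-, against 33.3 ± 5.35 in *Lyn*-/- mice, and *Ifnar1* averaged 8.50 ± 2.15 RPKM in mice labelled *Lyn*-/-*Ifnar1*-/-, against 5.38 ± 0.523 in *Lyn*-/- mice (SD, n = 4 per genotype). Whole-gene RPKM does not show which exons were read, so these 2 genes do not check the labels, and each genotype below is the labelled one. The interferon-induced gene *Irf7* averaged 7.40 RPKM in *Lyn*-/-*Ifnar1*-/- mice, against 669 RPKM in *Lyn*-/- mice. Hemoglobin genes took 55.5 to 78.9% of the RPKM of a library. B cell marker levels moved with genotype: the RPKM of *Cd79a*, *Cd79b*, *Ms4a1* and *Cd22* summed to 42.1 to 62.1 in *Lyn*-/- mice and 394 to 528 in WT mice.

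All 5 factors were lower in *Lyn*-/- mice than in WT mice, with means between 10.1 and 20.0% of WT. *Pax5* and *Spib* fell furthest, to 10.1 and 10.7% of the WT mean. *Ebf1* stood at 11.1% of it, *Pou2af1* at 17.9% and *Bcl11a* at 20.0%. In each case the 4 *Lyn*-/- mice lay below the 4 WT mice. In bulk blood, fewer cells of a type and less RNA per cell cannot be told apart, and that holds for every level given here.

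*Pax5*, the commitment factor, was 1.82, 2.55, 2.29 and 0.362 RPKM in *Lyn*-/- mice 1 to 4, against 17.6, 15.4, 19.8 and 16.6 RPKM in WT mice 1 to 4. The value of *Lyn*-/- mouse 4 was the lowest of the 20 and rested on 1 read, and the 4 *Lyn*-/- mice held 24 *Pax5* reads against 307 in WT mice. The log2 fold change on log2(RPKM + 0.5) was -3.13 (95% interval -3.85 to -2.42, limma adjusted p = 7.32e-07). *Ebf1*, which acts before *Pax5*, was 0.368, 0.196, 0.461 and 1.17 RPKM in *Lyn*-/- mice, against 5.34, 3.50, 4.44 and 6.56 RPKM in WT mice. Its *Lyn*-/- values rested on 1 to 6 reads a mouse, the highest being that of mouse 4. The fold change was -2.43 (-3.16 to -1.70, adjusted p = 2.25e-05), a scale on which the added 0.5 understates the change of so low a gene.

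*Spib*, the Ets factor, was 4.35, 3.95, 2.48 and 4.24 RPKM in *Lyn*-/- mice, against 36.6, 32.3, 32.3 and 39.1 RPKM in WT mice. Its log2 fold change was -3.09 (-3.55 to -2.63, adjusted p = 3.19e-09). *Pou2af1*, the octamer coactivator and the member with the highest mean RPKM, was 7.62, 8.06, 6.32 and 5.11 RPKM in *Lyn*-/- mice, against 44.4, 32.4, 37.6 and 36.9 RPKM in WT mice. These values rested on 195 reads in *Lyn*-/- mice and 1443 in WT mice, and gave a fold change of -2.41 (-2.85 to -1.97, adjusted p = 4.15e-08). *Bcl11a* was 1.02, 0.564, 0.738 and 0.810 RPKM in *Lyn*-/- mice, against 4.52, 3.03, 3.55 and 4.54 RPKM in WT mice, with a fold change of -1.78 (-2.29 to -1.27, adjusted p = 1.32e-05). Of all 8696 genes tested, 15.5% were lower in *Lyn*-/- mice by this test and 16.7% had separate lower ranges, while the median gene moved by -0.03 on the log2 scale. Each member kept its call under every alternative that left it in the test, the fits without 1 library included.

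**Figure D1:**
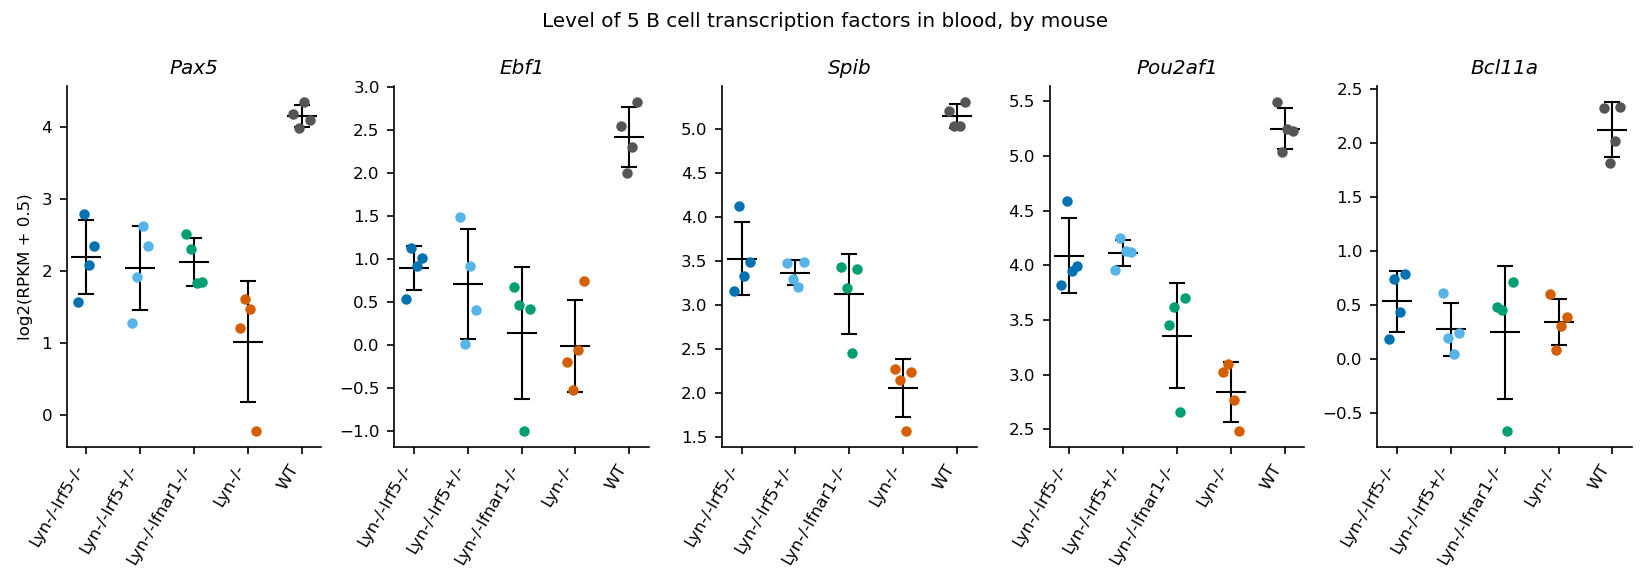
Level of each factor as log2(RPKM + 0.5) (vertical axes, 1 panel per gene) in each mouse of the 5 genotypes (points). Bars give the mean and SD of the log2 values of 4 mice. The WT mice lay above every other mouse in all 5 panels. *Bcl11a* was alone in having its *Lyn*-/- mean (0.783 RPKM before the log2 step) above those of *Lyn*-/-*Ifnar1*-/- and *Lyn*-/-*Irf5*+/- mice.

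Loss of *Ifnar1* or of *Irf5* in *Lyn*-/- mice was compared next, to ask whether the factors differed when either gene was removed. The 3 comparisons share the same 4 *Lyn*-/- libraries, so their values are given side by side. *Spib* was higher in all 3 genotypes than in *Lyn*-/- mice, *Pou2af1* in both *Irf5* genotypes, and *Pax5* in *Lyn*-/-*Irf5*-/- mice. *Ebf1* and *Bcl11a* passed the test in none of them. The B cell markers moved the same way, summing to 114 to 157 RPKM in *Lyn*-/-*Irf5*-/- mice, 116 to 139.6 RPKM in *Lyn*-/-*Irf5*+/- mice and 56.9 to 117 RPKM in *Lyn*-/-*Ifnar1*-/- mice, against 42.1 to 62.1 RPKM in *Lyn*-/- mice. By limma, 3 of 5 members were higher in *Lyn*-/-*Irf5*-/- mice (5.36% of all genes), 2 of 5 in *Lyn*-/-*Irf5*+/- mice (6.12%) and 1 of 5 in *Lyn*-/-*Ifnar1*-/- mice (2.74%).

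*Spib* was 8.49, 17.0, 9.62 and 10.7 RPKM in *Lyn*-/-*Irf5*-/- mice 1 to 4, with a log2 fold change over *Lyn*-/- mice of 1.47 (1.01 to 1.93, limma adjusted p = 0.000527). *Lyn*-/-*Irf5*+/- mice had 10.7, 9.35, 8.72 and 10.8 RPKM, a fold change of 1.31 (0.85 to 1.77, adjusted p = 0.000839). The values were 10.3, 8.64, 5.01 and 10.1 RPKM in *Lyn*-/-*Ifnar1*-/- mice, a fold change of 1.06 (0.60 to 1.52, adjusted p = 0.00598). Every one of these 12 values exceeded the highest *Lyn*-/- value of 4.35 RPKM, and the group means of 11.5, 9.87 and 8.52 RPKM stood at 32.7, 28.1 and 24.3% of the WT mean. Scaled to the same RPKM sum per library, the calls in *Lyn*-/-*Irf5*+/- and *Lyn*-/-*Ifnar1*-/- mice were lost (adjusted p = 0.189 and 0.533) at fold changes of 1.07 and 0.88. The *Lyn*-/-*Ifnar1*-/- call was also lost with only these 2 genotypes in the model (adjusted p = 0.106) and at equal RPKM sums without hemoglobin genes (adjusted p = 0.154).

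Of the 5 members *Pou2af1* came nearest to its WT mean, at 44.7% of it in *Lyn*-/-*Irf5*-/- mice and 44.6% in *Lyn*-/-*Irf5*+/- mice. It was 13.6, 23.6, 14.9 and 15.4 RPKM in *Lyn*-/-*Irf5*-/- mice, a fold change of 1.24 over *Lyn*-/- mice (0.80 to 1.68, adjusted p = 0.000785). It was 15.01, 18.5, 17.0 and 16.9 RPKM in *Lyn*-/-*Irf5*+/- mice, a fold change of 1.27 (0.83 to 1.71, adjusted p = 0.000758), a call lost at the same RPKM sum (1.02, adjusted p = 0.204). All 8 values lay above the highest *Lyn*-/- value of 8.06 RPKM. *Pou2af1* was 10.5, 11.8, 5.80 and 12.5 RPKM in *Lyn*-/-*Ifnar1*-/- mice and overlapped *Lyn*-/- mice (0.51, 0.07 to 0.95, adjusted p = 0.147). Mouse 3 was the low one, and without it the fold change was 0.75 (adjusted p = 0.0141).

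*Pax5* was 2.47, 6.45, 3.76 and 4.60 RPKM in *Lyn*-/-*Irf5*-/- mice, 1.93, 3.28, 5.67 and 4.60 RPKM in *Lyn*-/-*Irf5*+/- mice, and 5.21, 4.47, 3.08 and 3.12 RPKM in *Lyn*-/-*Ifnar1*-/- mice. Its fold changes over *Lyn*-/- mice were 1.18 (0.47 to 1.89, adjusted p = 0.0248), 1.02 (0.31 to 1.74, adjusted p = 0.0504) and 1.11 (0.39 to 1.82, adjusted p = 0.0560), in that order. The 3 estimates were alike in size and fell on either side of the threshold. The call in *Lyn*-/-*Irf5*-/- mice was lost without *Lyn*-/- mouse 4 (0.77, adjusted p = 0.0999), without *Lyn*-/-*Irf5*-/- mouse 2 (0.98, adjusted p = 0.0947) or mouse 4 (1.13, adjusted p = 0.0602), and with only these 2 genotypes in the model (adjusted p = 0.0544). Leaving out *Lyn*-/- mouse 2 or 3 or *Lyn*-/-*Irf5*+/- mouse 1 brought the adjusted p in *Lyn*-/-*Irf5*+/- mice to 0.0372, 0.0440 and 0.0193. For *Lyn*-/-*Ifnar1*-/- mice, it was 0.0454, 0.0487 and 0.0454 without *Lyn*-/- mouse 2 or 3 or *Lyn*-/-*Ifnar1*-/- mouse 3.

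*Ebf1* did not pass the test in any of the 3 genotypes, although its means in *Lyn*-/-*Irf5*-/- and *Lyn*-/-*Irf5*+/- mice, at 27.9 and 25.3% of the WT mean, stood no lower than those of *Pax5* (24.9 and 22.3%). It was 0.949, 1.69, 1.39 and 1.51 RPKM in *Lyn*-/-*Irf5*-/- mice, a fold change of 0.91 over *Lyn*-/- mice (0.18 to 1.64, adjusted p = 0.0895). This passed without *Lyn*-/- mouse 4 (1.16, adjusted p = 0.0465), with only these 2 genotypes in the model (adjusted p = 0.0339), at equal RPKM sums without hemoglobin genes (1.35, adjusted p = 0.0124), and without *Lyn*-/- mouse 4 and *Lyn*-/-*Ifnar1*-/- mouse 3 together (adjusted p = 0.00724). The level was 2.30, 0.504, 1.39 and 0.824 RPKM in *Lyn*-/-*Irf5*+/- mice (0.72, -0.01 to 1.44, adjusted p = 0.177), and passed without those 2 libraries (0.97, adjusted p = 0.0229). It was 1.09, 0.875, 0 and 0.839 RPKM in *Lyn*-/-*Ifnar1*-/- mice (0.15, -0.58 to 0.88, adjusted p = 0.845). Limma-voom, which adds 0.5 reads in place of 0.5 RPKM, gave larger *Ebf1* fold changes of 1.40, 1.33 and 0.58 in the 3 genotypes in that order (adjusted p = 0.0705, 0.124 and 0.638). The 0 of *Lyn*-/-*Ifnar1*-/- mouse 3 came from a library in which 1 read of *Ebf1* was worth 0.414 RPKM, so 0 reads allow a level of up to 1.24 RPKM there (3 reads, counting error only). The low reads behind *Ebf1*, 13 in all *Lyn*-/- mice, leave intervals wide in every comparison.

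*Bcl11a* had the smallest fold change over *Lyn*-/- mice of the 5 members in each genotype on log2(RPKM + 0.5). In *Lyn*-/-*Ifnar1*-/- mice, *Ebf1* was nearer to 0 with an added 0.1 (*Bcl11a* -0.25, *Ebf1* 0.036) and without *Lyn*-/- mouse 2 or *Lyn*-/-*Ifnar1*-/- mouse 1, 2 or 4. It was 0.638, 1.17, 0.852 and 1.23 RPKM in *Lyn*-/-*Irf5*-/- mice, 1.03, 0.645, 0.533 and 0.686 RPKM in *Lyn*-/-*Irf5*+/- mice, and 0.897, 0.875, 0.132 and 1.14 RPKM in *Lyn*-/-*Ifnar1*-/- mice. *Lyn*-/-*Ifnar1*-/- mouse 3 was the lowest of the 20 mice, on 1 read. Without this mouse the fold change of *Bcl11a* in that genotype was 0.20 (limma adjusted p = 0.568). All 3 genotypes overlapped the *Lyn*-/- range of 0.564 to 1.02 RPKM, with fold changes of 0.19 (-0.32 to 0.70), -0.07 (-0.58 to 0.44) and -0.10 (-0.61 to 0.41) and adjusted p of 0.668, 0.880 and 0.854. The upper limits of these intervals lay below the *Spib* estimates of 1.47, 1.31 and 1.06, though the difference between the 2 genes was not tested. Of the gap between *Lyn*-/- and WT means, *Bcl11a* regained 6.07% in *Lyn*-/-*Irf5*-/- mice, against 32.6% for *Pou2af1* and 24.6% for *Spib*.

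Separate higher ranges than *Lyn*-/- mice were found for *Spib* and *Pou2af1* in *Lyn*-/-*Irf5*-/- mice (9.63% of all genes) and in *Lyn*-/-*Irf5*+/- mice (7.42%), and for *Pax5* and *Spib* in *Lyn*-/-*Ifnar1*-/- mice (4.17%). Against WT mice, all 5 members remained lower in each genotype. Their fold changes were -1.95 to -1.16 in *Lyn*-/-*Irf5*-/- mice (3.7% of all genes lower), -2.11 to -1.14 in *Lyn*-/-*Irf5*+/- mice (5.49%) and -2.28 to -1.88 in *Lyn*-/-*Ifnar1*-/- mice (9.61%). The *Ebf1* call in *Lyn*-/-*Irf5*-/- mice (-1.52) was lost with an added 0.1 in place of 0.5 (adjusted p = 0.0745). At the same RPKM sum, *Ebf1*, *Spib* and *Pou2af1* lost this call in *Lyn*-/-*Irf5*-/- mice (adjusted p = 0.0660, 0.0697 and 0.313), and *Pou2af1* also at equal sums without hemoglobin genes (adjusted p = 0.102).

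The *Irf5* dose was asked of *Lyn*-/-*Irf5*-/- mice against *Lyn*-/-*Irf5*+/- mice. The fold changes were 0.16 for *Pax5*, 0.19 for *Ebf1*, 0.16 for *Spib*, -0.03 for *Pou2af1* and 0.26 for *Bcl11a*, with adjusted p from 0.776 to 0.979. All 5 ranges overlapped. No gene of the table passed limma's test in this comparison (0% of all genes higher, 0 of 8696 called in either direction, 714 at an unadjusted p under 0.05), and limma-voom on the recovered reads called 0 as well. No label gives the batch of a library, so a batch could not be entered in the model. The *Lyn*-/-*Irf5*+/- samples carry sample numbers of a separate block, and whether they were sequenced with the others is not given in the sources used here. In every comparison with *Lyn*-/-*Irf5*+/- mice, a batch of that kind and the genotype cannot be told apart.

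*Lyn*-/-*Ifnar1*-/- mice were also set against *Lyn*-/-*Irf5*-/- mice. *Pou2af1* had the lowest adjusted p of the members, at 5.80 to 12.5 RPKM in *Lyn*-/-*Ifnar1*-/- mice and 13.6 to 23.6 RPKM in *Lyn*-/-*Irf5*-/- mice, ranges that did not overlap. The fold change of -0.73 (-1.17 to -0.29) had a limma adjusted p of 0.0541, while limma-voom gave -0.67 (adjusted p = 0.0462). It also passed without *Lyn*-/-*Ifnar1*-/- mouse 1 (adjusted p = 0.0420) or mouse 2 (adjusted p = 0.0235). For *Ebf1* the fold change was -0.76 (-1.49 to -0.03, adjusted p = 0.216). *Pax5*, *Spib* and *Bcl11a* had fold changes of -0.07, -0.41 and -0.29 (adjusted p = 0.931, 0.298 and 0.537). By limma 0 of 5 members were lower, against 2.06% of all genes.

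From the lowest to the highest mean, *Pax5* ran *Lyn*-/-, *Lyn*-/-*Irf5*+/-, *Lyn*-/-*Ifnar1*-/-, *Lyn*-/-*Irf5*-/- and WT. *Ebf1*, *Spib* and *Pou2af1* shared another order, which was *Lyn*-/-, *Lyn*-/-*Ifnar1*-/-, *Lyn*-/-*Irf5*+/-, *Lyn*-/-*Irf5*-/- and WT. *Bcl11a* ran *Lyn*-/-*Irf5*+/-, *Lyn*-/-*Ifnar1*-/-, *Lyn*-/-, *Lyn*-/-*Irf5*-/- and WT. The step to WT was the one at which the ranges were separate for all 5 genes. Below it, neighbours in the order overlapped, except that *Spib* was separate between *Lyn*-/-*Ifnar1*-/- and *Lyn*-/- mice and *Pou2af1* between *Lyn*-/-*Irf5*+/- and *Lyn*-/-*Ifnar1*-/- mice.

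**Figure D2:**
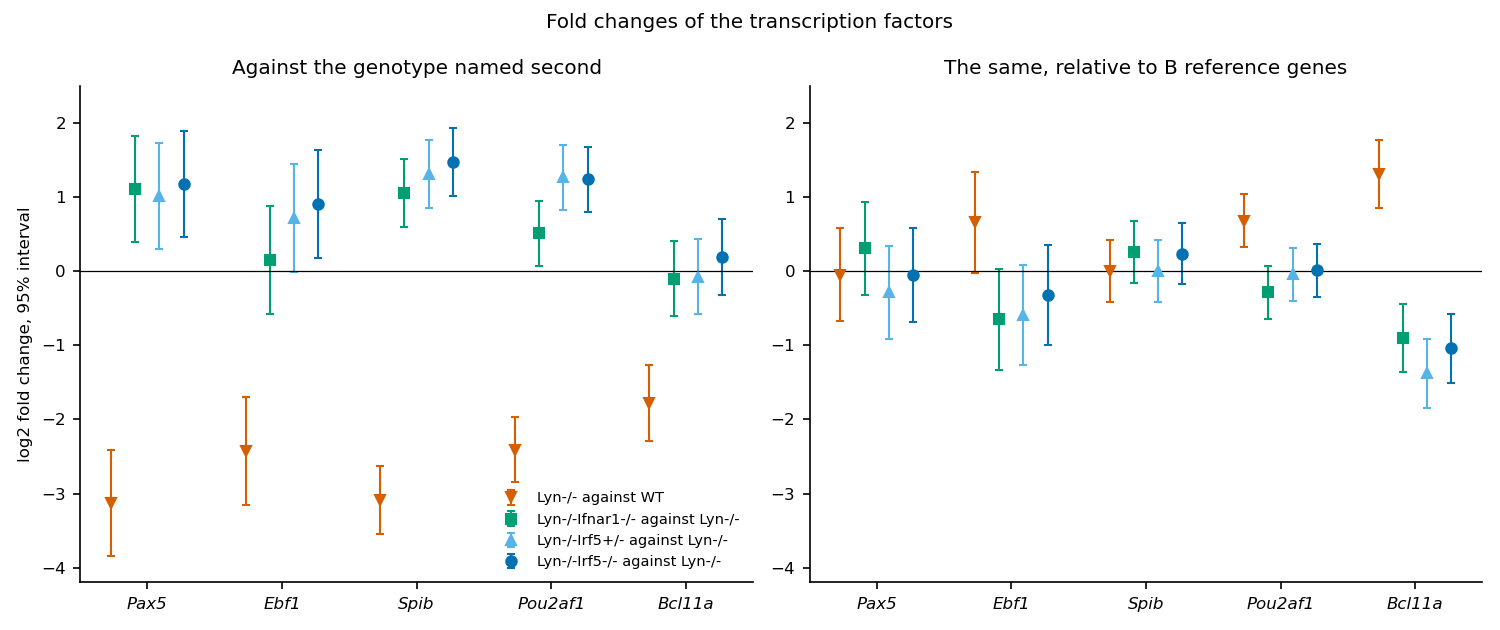
Log2 fold changes of the 5 factors with 95% intervals from limma, for the comparisons named in the legend, on log2(RPKM + 0.5) and, in the other panel, relative to the mean of 4 B cell reference genes. The *Lyn*-/- against WT values run from -3.13 (*Pax5*) to -1.78 (*Bcl11a*) on RPKM, and relative to the reference genes *Bcl11a* stands at 1.31 and *Pou2af1* at 0.68. With an added 0.1 in place of 0.5, *Bcl11a* was -2.19 on RPKM and 0.97 relative to the reference genes.

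Because the B cell markers moved with genotype, each factor was also read against B cell RNA. The mean log2 level of *Cd79a* and *Cd79b* (the signalling chains of the B cell receptor), *Ms4a1* and *Cd22* was subtracted in each library. On this scale *Spib* stood close to its WT level in *Lyn*-/- mice, and *Pou2af1* and *Bcl11a* stood above theirs. The *Pax5* estimate was also close to WT but its interval was wide, and *Ebf1* was not resolved. Subtracting the reference raises nearly every other gene, so 99.7% of all genes were called in *Lyn*-/- mice against WT mice, the median gene moved by 3.05, and adjusted p values are close to unadjusted ones. A change relative to the reference therefore says how a factor stood to these 4 genes, not to the genome.

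*Pax5* had a relative fold change of -0.044 (-0.67 to 0.59, limma adjusted p = 0.886) and *Spib* of 0.0011 (-0.42 to 0.42, adjusted p = 0.996). *Pou2af1* was -0.47 ± 0.0927 in *Lyn*-/- mice and -1.15 ± 0.0919 in WT mice (log2 level minus the reference, SD, n = 4 each), ranges that did not overlap. In linear terms it was 12.1 to 13.7 RPKM per 100 RPKM of the summed reference genes in *Lyn*-/- mice and 8.10 to 9.53 in WT mice. The relative fold change was 0.68 (0.32 to 1.04, adjusted p = 0.000641), and limma-voom gave 0.69 (adjusted p = 0.000402). Against the mean of 34 pan B cell genes in place of the 4, it was -0.030 (adjusted p = 0.861), that of *Spib* was -0.71 (adjusted p = 0.00119) and that of *Pax5* -0.76 (adjusted p = 0.0250). The result for these factors thus depended on which genes served as reference. The 34 include *Cd24a* (1.06 in *Lyn*-/- against WT mice), which red cells also express, and *Cd180*, which monocytes also express. The part of such cells in this reference was not tested.

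*Bcl11a* was -2.96 ± 0.362 in *Lyn*-/- mice and -4.27 ± 0.129 in WT mice (log2 level minus the reference, SD, n = 4 each). The relative fold change was 1.31 (0.85 to 1.77, adjusted p = 5.29e-06). It was 0.97 with an added 0.1 (adjusted p = 0.00785), 0.92 by limma-voom (adjusted p = 0.00184) and 0.60 against the pan B cell genes (adjusted p = 0.00654), so its size moved while its sign and call held. In linear terms *Bcl11a* was 0.908 to 1.92 RPKM per 100 RPKM of summed reference genes in *Lyn*-/- mice and 0.759 to 1.01 in WT mice, which overlapped. *Ebf1* had a relative fold change of 0.66 (-0.018 to 1.33, adjusted p = 0.0560), but 0.025 with an added 0.1 (adjusted p = 0.964) and -0.045 by limma-voom (adjusted p = 0.928). It passed with an added 1 (1.05, adjusted p = 0.000348), with only these 2 genotypes in the model (adjusted p = 0.0459), with *Cd79b* and *Ms4a1* alone as reference (0.75, adjusted p = 0.0272), and without *Lyn*-/- mouse 1 (0.77, adjusted p = 0.0416), *Lyn*-/- mouse 2 (0.92, adjusted p = 0.0107) or WT mouse 4 (0.78, adjusted p = 0.0401). Without *Lyn*-/- mouse 4 it was 0.33. The side of the threshold on which *Ebf1* fell therefore depended on the genes used as reference, the added value and single libraries.

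In the other genotypes against *Lyn*-/- mice, *Bcl11a* was the only member called on this scale. Its relative fold change was -1.04 (-1.50 to -0.58, adjusted p = 0.000243) in *Lyn*-/-*Irf5*-/- mice, where 93.3% of all genes were called and the median gene stood at -1.17. It was -1.38 (-1.84 to -0.92, adjusted p = 1.14e-05) in *Lyn*-/-*Irf5*+/- mice (94.8% of all genes, median -1.31) and -0.90 (-1.36 to -0.44, adjusted p = 0.00226) in *Lyn*-/-*Ifnar1*-/- mice (65.6%, median -0.78). *Bcl11a* thus moved about as far as the median gene of the table, while the B reference genes rose. Against the 34 pan B cell genes its fall was smaller and still called, at -0.61 (adjusted p = 0.0139), -0.92 (adjusted p = 0.000663) and -0.68 (adjusted p = 0.0131) in the 3 genotypes in that order. *Spib* and *Pax5* lay between -0.29 and 0.31, and *Pou2af1* between -0.29 and 0.012, with 0 called, though *Pax5* passed in *Lyn*-/-*Irf5*+/- mice without *Lyn*-/- mouse 4 (-0.62, adjusted p = 0.0411). Against the 34 pan B cell genes, however, *Spib* was also higher in *Lyn*-/-*Irf5*-/- mice (0.67, adjusted p = 0.00597) and *Lyn*-/-*Irf5*+/- mice (0.46, adjusted p = 0.0370), and so was *Pou2af1* (0.45, adjusted p = 0.0286, and 0.42, adjusted p = 0.0328). *Ebf1* lay between -0.65 and -0.32, uncalled here but called in all 3 genotypes with an added 1 (adjusted p = 0.0463 in *Lyn*-/-*Irf5*-/- mice, 0.00815 in *Lyn*-/-*Irf5*+/- mice and 0.0281 in *Lyn*-/-*Ifnar1*-/- mice). Without *Lyn*-/- mouse 2 it was -0.85 (adjusted p = 0.0184) in *Lyn*-/-*Irf5*+/- mice and -0.91 (adjusted p = 0.0202) in *Lyn*-/-*Ifnar1*-/- mice, and without *Lyn*-/-*Irf5*+/- mouse 1 it was -0.88 (adjusted p = 0.0156) in that genotype. With *Cd79b* and *Ms4a1* alone as reference it was -0.70 (adjusted p = 0.0389) in *Lyn*-/-*Irf5*+/- mice. Limma-voom instead gave 0.13, -0.018 and -0.35 for *Ebf1* in the 3 genotypes, in the order used for the added 1, and an added 0.1 gave 0.10, -0.27 and -0.80, with 0 called, so that neither the size nor, in *Lyn*-/-*Irf5*-/- mice, the sign was settled.

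**Figure D3:**
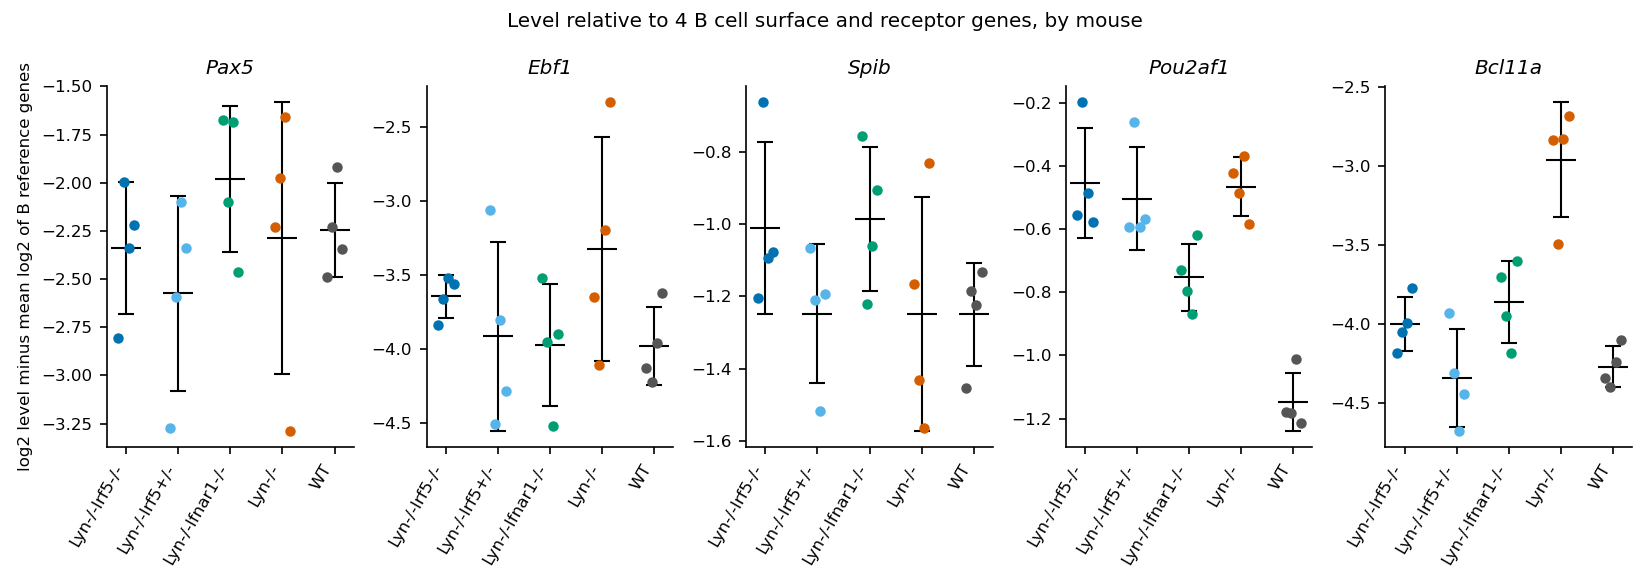
Log2 level of each factor minus the mean log2 level of *Cd79a*, *Cd79b*, *Ms4a1* and *Cd22* in the same library (vertical axes), by mouse (points) with the mean and SD of 4 mice. The mean of *Pou2af1* was -0.47 in *Lyn*-/- mice and -1.15, its lowest, in WT mice, and *Bcl11a* stood at -2.96 in *Lyn*-/- mice against -4.27 in WT mice.

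The members were then compared with one another over the 16 *Lyn*-deficient libraries, since the WT mice form a cluster apart. As a description, with no test because libraries of a genotype share their group, the Pearson correlation of log2 levels between *Pou2af1* and *Spib* was 0.883. With the mean of the 4 B reference genes it was 0.959 for *Pou2af1*, 0.928 for *Spib*, 0.731 for *Pax5*, 0.605 for *Ebf1* and 0.302 for *Bcl11a*. The 2 members with the most reads tracked the B cell genes most closely. *Ebf1*, *Pax5* and *Bcl11a* had the fewest reads, and the part of counting error in their correlations was not tested.

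Over all 20 libraries, the genes whose log2 level ran most like the mean of the 5 factors were *Cd79a* (r = 0.983), the invariant chain gene *Cd74* (0.982), *Ly6d* (0.977), *Cd79b* (0.976) and *Bank1* (0.976). Within the 16 *Lyn*-deficient libraries their r was 0.954, 0.919, 0.926, 0.906 and 0.897. Taken singly, *Pou2af1* ran most like *Prr5* (0.981 over 20 libraries, 0.958 over 16), *Spib* like the chemokine receptor gene *Cxcr5* (0.973 and 0.922), and *Ebf1* like *Ly6d* (0.945 and 0.830). *Pax5* ran most like the class II gene *H2-Ab1* (0.930 and 0.776), and *Bcl11a* like *Swap70* (0.955 and 0.822), which encodes a signalling protein of activated B cells. These are the nearest by correlation alone.

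Other genes of the programme were read from lists in *Lyn*-/- mice against WT mice. Of 34 pan B cell genes, 31 fell, 1 rose and 2 did not pass, with a median log2 fold change of -2.81 against -0.03 for all genes. *Cr2*, the complement receptor of mature B cells, averaged 0.0632 RPKM in *Lyn*-/- mice, against 6.61 in WT mice (-3.65, limma adjusted p = 1.06e-10). Its mean was 0.438 RPKM or less in all 4 *Lyn*-deficient genotypes, so it passed the filter on low values through the WT mice. It was also named for its statistic in this same comparison. *Ms4a1*, encoding CD20, averaged 5.04 RPKM in *Lyn*-/- mice, against 63.6 in WT mice (-3.54). The gene that rose was *Cd180* (0.74), which monocytes also express. *Plcg2* (0.18) and *Cd24a* did not pass, the second a gene that red cells also express (3710 RPKM in *Lyn*-/- mice, 1681 RPKM in WT mice, 1.06, adjusted p = 0.0654).

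Among 20 partners and upstream factors, 11 fell, 0 rose and 9 did not pass (median -0.78). *Tcf3*, the partner of *Ebf1*, averaged 6.88 RPKM in *Lyn*-/- mice, against 14.8 in WT mice (-1.05, adjusted p = 2.51e-05). *Ets1* averaged 19.5 RPKM in *Lyn*-/- mice, against 45.1 in WT mice (-1.20, adjusted p = 7.86e-06), and *Foxp1* averaged 3.46 RPKM in *Lyn*-/- mice, against 8.53 in WT mice (-1.20, adjusted p = 3.83e-05). Many of these genes are also expressed by T cells. *Ikzf1*, the lymphoid factor Ikaros, averaged 15.95 RPKM in *Lyn*-/- mice, against 18.05 in WT mice (-0.17, adjusted p = 0.355). *Pou2f2*, encoding the Oct2 protein on which the *Pou2af1* product acts, had a fold change of 0.41 (adjusted p = 0.0616). It was singled out after its values were seen and also stands in the monocyte list.

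Factors of mature B cells split, with 6 of 20 higher, 6 lower and 8 not past the test (median -0.01). Of all 8696 genes tested, 1483 were higher and 1346 lower. *Ciita*, the class II transactivator, averaged 1.33 RPKM in *Lyn*-/- mice, against 7.89 in WT mice (-2.19, adjusted p = 1.87e-07), and *Zfp318*, a factor of mature naive B cells, averaged 0.832 RPKM in *Lyn*-/- mice, against 4.00 in WT mice (-1.76). *Nr4a1*, an early response gene that is not restricted to B cells, averaged 48.7 RPKM in *Lyn*-/- mice, against 8.21 in WT mice (2.501). *E2f2*, which is also an erythroid factor, averaged 199 RPKM in *Lyn*-/- mice, against 58.6 in WT mice (1.69). Of 11 plasma cell factors and genes 5 fell, 2 rose (*Xbp1* by 1.05 and *Atf6* by 0.46, genes of the unfolded protein response that act in many cells) and 4 did not pass (median -0.43). *Mzb1*, a chaperone of antibody secretion, averaged 2.90 RPKM in *Lyn*-/- mice, against 17.2 in WT mice (-2.46, adjusted p = 2.08e-07), and *Irf4*, which drives plasma cell formation, averaged 1.12 RPKM in *Lyn*-/- mice, against 4.18 in WT mice (-1.53, adjusted p = 6.42e-05).

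Against *Lyn*-/- mice, all 4 B reference genes were higher in each other genotype, with medians of 1.25 in *Lyn*-/-*Irf5*-/- mice, 1.25 in *Lyn*-/-*Irf5*+/- mice and 0.80 in *Lyn*-/-*Ifnar1*-/- mice. Of the 34 pan B cell genes, 21, 23 and 15 were higher and 2, 1 and 0 lower in these genotypes in that order. The lower ones were *Cd180* and *Cd24a* in *Lyn*-/-*Irf5*-/- mice and *Plcg2* in *Lyn*-/-*Irf5*+/- mice. The members' own counts of 3, 2 and 1 of 5 stand beside these. Over all 8696 genes tested, 466, 532 and 238 were higher and 746, 736 and 344 lower in these genotypes in that order. Of the 20 partners and upstream factors, 4, 0 and 1 were higher and 1, 2 and 0 lower. *Tcf3* (0.64, adjusted p = 0.00772), *Ets1* (0.50), *Lef1* (0.92) and *Irf4* (0.999) were the 4 that were higher in *Lyn*-/-*Irf5*-/- mice, and *Foxo1* (0.53) the 1 in *Lyn*-/-*Ifnar1*-/- mice. *Pou2f2* was lower in *Lyn*-/-*Irf5*-/- mice (-0.76, adjusted p = 0.00358) and, with *Ncor1* (-0.50), in *Lyn*-/-*Irf5*+/- mice (-0.69, adjusted p = 0.00833). *Mzb1* was higher in all 3 genotypes, by 1.75, 2.04 and 1.16 on the log2 scale.

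**Figure D4:**
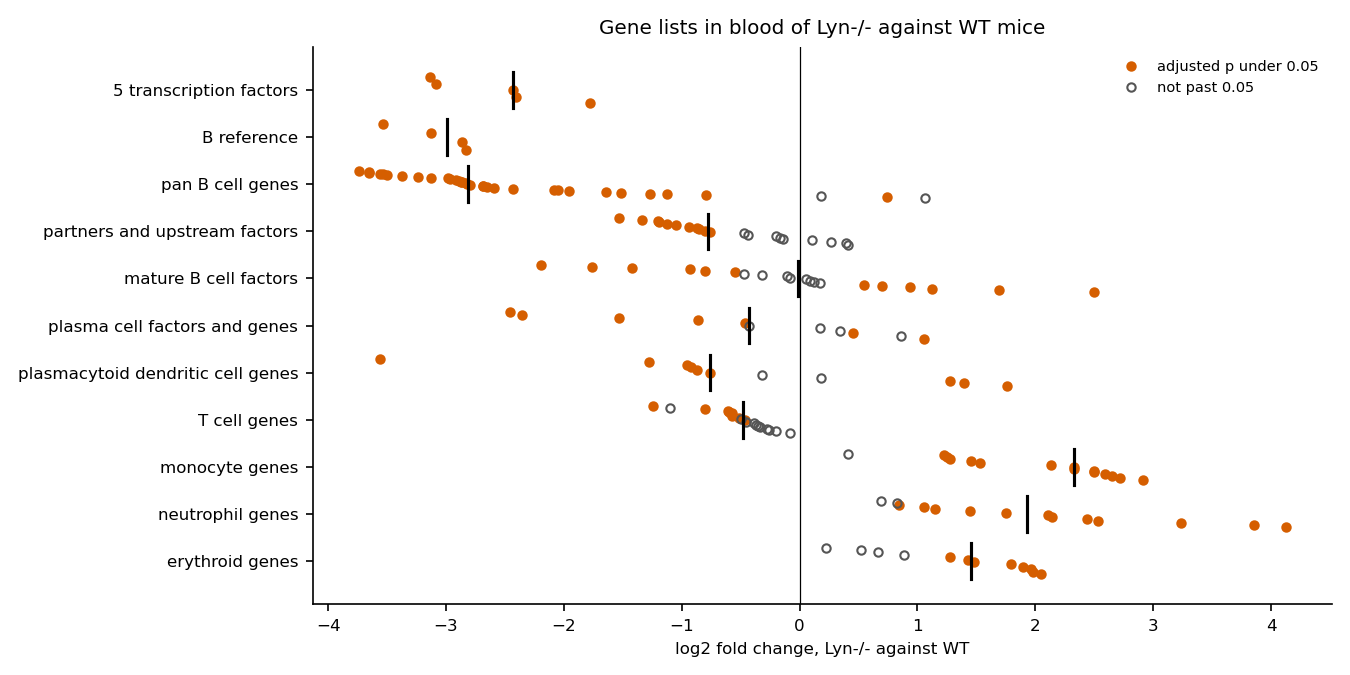
Log2 fold change on log2(RPKM + 0.5), *Lyn*-/- against WT, of each gene of each list (points, filled at a limma adjusted p under 0.05), with the median of the list as a bar. The pan B cell genes centre on -2.81 and the monocyte genes on 2.32.

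Markers of other blood cells moved with genotype as well. In *Lyn*-/- mice against WT mice, 14 of 15 monocyte genes, 12 of 14 neutrophil genes and 8 of 12 erythroid genes rose and 0 fell, with medians of 2.32, 1.93 and 1.45. The summed monocyte markers were 105 to 149 RPKM in *Lyn*-/- mice, against 19.2 to 24.6 in WT mice. Of 20 T cell genes 9 fell and 0 rose (median -0.48), the markers summing to 94.4 to 144 RPKM in *Lyn*-/- mice, against 149 to 208 in WT mice. The summed plasma cell markers *Igj*, *Mzb1* and *Sdc1* were 1.94 to 5.86 RPKM in *Lyn*-/- mice, against 18.9 to 26.0 in WT mice. A further planned marker, *Tnfrsf17*, was not in the table. *Mzb1* held most of this sum (means of 2.90 and 17.2 RPKM). *Igj* was separate, at 0.208 to 0.493 RPKM in *Lyn*-/- mice and 2.16 to 5.17 RPKM in WT mice. *Sdc1* overlapped, at 0.286 to 0.902 RPKM in *Lyn*-/- mice and 0.438 to 1.05 RPKM in WT mice. No defining marker of these types was at 0 in every mouse of a genotype. Against *Lyn*-/- mice, 11 of the T cell genes were higher and 11 of the monocyte genes lower in *Lyn*-/-*Irf5*-/- mice, 11 higher and 9 lower in *Lyn*-/-*Irf5*+/- mice, and 9 higher and 9 lower in *Lyn*-/-*Ifnar1*-/- mice. Of the 12 erythroid genes, 9 were lower in *Lyn*-/-*Irf5*-/- mice (median -2.28), 7 in *Lyn*-/-*Irf5*+/- mice (median -1.37) and 0 in *Lyn*-/-*Ifnar1*-/- mice (median -0.41), and 0 were higher. Of the 14 neutrophil genes, 3, 3 and 4 were lower in these genotypes in that order and 0 higher. The monocyte markers summed to 64.2 to 75.8 RPKM in *Lyn*-/-*Irf5*-/- mice, 47.4 to 67.3 RPKM in *Lyn*-/-*Irf5*+/- mice and 44.2 to 79.8 RPKM in *Lyn*-/-*Ifnar1*-/- mice. The part of these cells in the levels of the 5 factors was not tested.

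pDCs, which also use *Spib* and *Bcl11a*, were read from 2 of 5 defining markers in the table, *Ccr9* and *Pacsin1*. Their sum was 1.71 to 3.75 RPKM in *Lyn*-/-*Irf5*-/- mice, 2.16 to 3.13 RPKM in *Lyn*-/-*Irf5*+/- mice and 2.18 to 2.80 RPKM in *Lyn*-/-*Ifnar1*-/- mice. It was 1.22 to 1.60 RPKM in *Lyn*-/- mice, against 1.74 to 3.56 in WT mice. The sum in *Lyn*-/- mice lay below that of each other genotype. Singly, *Ccr9* overlapped between *Lyn*-/- (0.497 to 0.864 RPKM) and *Lyn*-/-*Ifnar1*-/- mice (0.615 to 0.875 RPKM), and *Pacsin1* between *Lyn*-/- (0.516 to 1.10 RPKM) and WT mice (0.728 to 1.64 RPKM). *Ccr9* was separate from WT mice (1.01 to 2.12 RPKM), and *Pacsin1* from *Lyn*-/-*Ifnar1*-/- mice (1.32 to 2.19 RPKM). Of the 11 pDC genes, 6 fell in *Lyn*-/- mice, 3 rose (*Irf7*, *Pltp* and *Tlr7*, which other blood cells also express) and 2 did not pass. Against *Lyn*-/- mice, 3 were higher and 2 lower in *Lyn*-/-*Irf5*-/- mice. In *Lyn*-/-*Irf5*+/- mice 3 were higher and 2 lower, and in *Lyn*-/-*Ifnar1*-/- mice 2 were higher and 4 lower. *Ly6d*, shared with B cells, averaged 14.7 RPKM in *Lyn*-/- mice, against 181 in WT mice (-3.56), while *Irf7*, which interferon induces in many cells, averaged 669 RPKM in *Lyn*-/- mice, against 179 in WT mice (1.76).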

How the data were processed

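Peripheral blood RNA of 20 mice was sequenced as strand-specific libraries. The authors aligned reads to mm10 with STAR, counted them with featureCounts and deposited RPKM scaled by the trimmed mean of M values in edgeR, 1 column per mouse. The deposited table carries no read totals. Whole reads were recovered for 9222 of 9228 genes (within 0.05 reads, 99.9% of genes) and the median gene of a library held 11 to 52 reads. The share is one of genes, not of reads, and the reads of the other 6 genes are not known. Depth intervals and floors cover counting error only. The labels do not give litters, so p values measure the spread between mice.

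Genotypes came from the labels. log2(RPKM + 0.5) of the 8696 genes that reached 1 RPKM in 4 or more libraries was compared by limma 3.58.1 in R 4.3.3 (variance trend, 1 model for the 20 libraries, Benjamini-Hochberg over all genes per comparison, threshold 0.05). The comparisons were repeated after subtracting the mean log2 level of 4 B reference genes. The plan had 1 more gene in this reference and in the pan B cell list, which is not reported here. Limma-voom on the recovered reads tested 8690 genes. The model was tested on simulated data. Alternatives covered the pseudocount, the filter, the scaling, the samples in the model, the B reference, a block by replicate number and each library left out. Leaving out 2 libraries together, and limma-voom on the B reference scale, were chosen after seeing the data.

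The 5 members and all gene lists were chosen with earlier results of these data known. The genes named from a list were those with the strongest limma statistic and the most abundant ones, with exceptions stated. Tables and plots were made with Python 3.11.15, pandas 2.3.3, numpy 2.4.6, scipy 1.17.1 and matplotlib 3.10.9. Promoters came from RefSeq (GRCm38.p6), matched by symbol for 5 of 5 members. Protein sequences were not used here.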

Additional observations from a re-analysis of the deposited data

Results flagged for a closer look

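*Ebf1* in the 4 *Lyn*-/-*Ifnar1*-/- mice stood out because 1 mouse lay far from the others: mouse 3 had 0 RPKM, and its gap to the next mouse was 0.852 of the range, past Dixon's 95% critical value for 4 samples. Of 25 sets of 4 mice tested (5 genes, 5 genotypes) this was the 1 that passed, and chance passes about 1 in 20. The same library had the lowest value of its genotype for all 5 factors (*Pax5* by a narrow margin, at 3.08 RPKM against 3.12 in mouse 4), and 1 read of *Ebf1* was worth 0.414 RPKM in it. This library also had the highest mean log2 level of the erythroid genes of the 20 libraries. It was 9.11, against 6.67 to 8.27 in the other mice of the genotype. Its means of the B reference (3.52), pan B cell (2.64), monocyte (4.26) and neutrophil genes (3.54) were the lowest of the genotype. Those of the T cell and plasma cell genes were not. The part of depth and of cell mix in its low factor values was not tested.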

How the results depend on the processing

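On log2(RPKM + 0.5), 822 of 882 alternatives over 45 results kept direction and side of the threshold, and relative to the B reference 260 of 320 over 20 results did. The cause of a change was not tested unless stated. A filter at a mean of 2 RPKM left only 3 members in the test, and 3 were then lower than WT in *Lyn*-/- mice and in each other genotype, with 1 called in *Lyn*-/-*Ifnar1*-/- against *Lyn*-/-*Irf5*-/- mice. With the same RPKM sum, 0 members were called in *Lyn*-/-*Ifnar1*-/- and 0 in *Lyn*-/-*Irf5*+/- against *Lyn*-/- mice, and 2 in *Lyn*-/-*Irf5*-/- against WT mice. That scaling moved the median gene by 0.54 in *Lyn*-/-*Irf5*-/- against *Lyn*-/- mice and by -0.25 in *Lyn*-/- against WT mice, and changes are relative to it. With the same sum outside hemoglobin genes (medians 0.65 and -0.53), 0 members were called in *Lyn*-/-*Ifnar1*-/- against *Lyn*-/- mice and 1 against *Lyn*-/-*Irf5*-/- mice. Only 2 genotypes in the model gave 0 calls in *Lyn*-/-*Ifnar1*-/- against *Lyn*-/- mice. Limma-voom gave 1 in *Lyn*-/-*Ifnar1*-/- against *Lyn*-/-*Irf5*-/- mice.

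The replicate block gave 1 call in that comparison (*Pou2af1*, -0.73, adjusted p = 0.0457) and changed no other call. Of 40 correlations of deviations between libraries of the same replicate number, 11 were over 0.1 (-0.241 to 0.499). The main model did not pair mice by this number. These correlations also carry the cell mix and depth of each library, so they cannot show whether mice of the same number belonged together.

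Relative to the B reference, an added 1 gave 2 calls in each genotype against *Lyn*-/- mice, pan B cell genes as reference gave 3 in *Lyn*-/-*Irf5*-/- and 3 in *Lyn*-/-*Irf5*+/- mice, and *Cd79b* with *Ms4a1* gave 2 in *Lyn*-/-*Irf5*+/- mice. Leaving out *Lyn*-/-*Ifnar1*-/- mouse 3 and *Lyn*-/- mouse 4 together, chosen after seeing the data, gave 2 calls in *Lyn*-/-*Ifnar1*-/- against *Lyn*-/- mice on RPKM and 2 in *Lyn*-/-*Irf5*+/- mice on the relative scale. Without 1 library at a time, calls ran from 1 to 3 in *Lyn*-/-*Ifnar1*-/- against *Lyn*-/- mice, from 0 to 1 against *Lyn*-/-*Irf5*-/- mice, and on the relative scale from 1 to 2 in *Lyn*-/-*Ifnar1*-/- and from 1 to 2 in *Lyn*-/-*Irf5*+/- mice.

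The sign of values near 0 turned. On RPKM, *Bcl11a* against *Lyn*-/- mice was 0.018 (hemoglobin left out of the sum) and 0.22 (both libraries out) in *Lyn*-/-*Ifnar1*-/- mice and 0.11 (hemoglobin left out) in *Lyn*-/-*Irf5*+/- mice. *Pou2af1* in *Lyn*-/-*Irf5*-/- against *Lyn*-/-*Irf5*+/- mice was 0.75 (same sum) and 0.35 (hemoglobin left out). Between *Lyn*-/-*Ifnar1*-/- and *Lyn*-/-*Irf5*-/- mice *Pax5* was 0.060 (limma-voom) and 0.025 (both libraries out), and *Bcl11a* 0.014 (both out). Without 1 library, the ranges that crossed 0 were, in *Lyn*-/-*Ifnar1*-/- against *Lyn*-/- mice, -0.25 to 0.20 for *Bcl11a* and -0.028 to 0.53 for *Ebf1*, and, in *Lyn*-/-*Irf5*+/- mice, -0.19 to 0.013 for *Bcl11a*. Between *Lyn*-/-*Ifnar1*-/- and *Lyn*-/-*Irf5*-/- mice they were -0.28 to 0.13 for *Pax5* and -0.44 to 0.014 for *Bcl11a*. Between *Lyn*-/-*Irf5*-/- and *Lyn*-/-*Irf5*+/- mice they were -0.096 to 0.37 for *Pax5*, -0.039 to 0.45 for *Ebf1*, -0.19 to 0.063 for *Pou2af1* and -0.037 to 0.28 for *Spib*.

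Relative to the B reference in *Lyn*-/- against WT mice, *Spib* was -0.056 (added 0.1), -0.71 (pan B), -0.14 (both libraries out) and -0.074 (limma-voom), *Pax5* 0.18 (added 1), 0.050 (*Cd79b* and *Ms4a1*) and 0.29 (both out), *Ebf1* -0.053 (pan B) and -0.045 (limma-voom), and *Pou2af1* -0.030 (pan B). In *Lyn*-/-*Irf5*-/- against *Lyn*-/- mice *Pax5* was 0.17 (added 0.1), 0.38 (pan B) and 0.029 (limma-voom), *Ebf1* 0.10 (added 0.1), 0.11 (pan B), 0.13 (limma-voom) and 0.0067 (both out), and *Pou2af1* -0.19 (*Cd79b* and *Ms4a1*) and -0.028 (both out). In *Lyn*-/-*Irf5*+/- mice *Pax5* was 0.17 and *Pou2af1* 0.42 (pan B), and *Spib* -0.042 (added 1) and -0.11 (*Cd79b* and *Ms4a1*). *Pax5* was -0.12 (both out) in *Lyn*-/-*Ifnar1*-/- mice. Without 1 library, *Pax5* ran from -0.25 to 0.29 and *Spib* from -0.14 to 0.11 in *Lyn*-/- against WT mice, and against *Lyn*-/- mice *Pax5* ran from -0.38 to 0.16, *Ebf1* from -0.58 to 0.0067 and *Pou2af1* from -0.073 to 0.053 in *Lyn*-/-*Irf5*-/- mice, *Pax5* from -0.024 to 0.52 in *Lyn*-/-*Ifnar1*-/- mice, and *Spib* from -0.11 to 0.14 in *Lyn*-/-*Irf5*+/- mice. Depth limits *Ebf1*, *Bcl11a* and *Pax5*, with 13, 63 and 24 reads in *Lyn*-/- mice.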
